A study of Homo sapiens with 6 samples.

Results

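The miR-183 cluster is a polycistron that holds miR-183, miR-96 and miR-182 and gives rise to the 3 mature miRNAs described here, hsa-miR-183-5p, hsa-miR-96-5p and hsa-miR-182-5p. Of the opposite arms of these hairpins the panel has a probe for hsa-miR-182-3p, which stayed at background. They were chosen by the names of their probes, and they are 3 of the 798 miRNA probes of the nCounter human v3 miRNA panel, an assay that tags each miRNA by ligation and counts single barcoded molecules without amplification. All RNA was from A549, an established line of human lung adenocarcinoma cells. The 6 libraries fall into 3 scramble controls (siSCR) and 3 libraries of cells silenced for APE1 (siAPE1), the product of the APEX1 gene, which cleaves DNA at abasic sites during base excision repair. All were transient transfections of 100 pmol siRNA in the same cell line, and total RNA was collected after 72 h. A single siRNA sequence was used against APE1 and a single scramble sequence beside it, so the 2 conditions differ in 1 siRNA each. The panel carries no probe for APEX1, and how far APE1 was depleted was therefore not measured here.

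A polycistron is a primary transcript that holds several miRNA hairpins. Drosha cuts the hairpins out in the nucleus, Dicer trims them in the cytoplasm, and one arm of each is loaded into Argonaute, where the seed at its 5′ end selects target mRNAs. The miR-183 cluster is known from sensory epithelia such as the inner ear and retina and is often abundant in carcinomas, including those of the lung. FOXO1 and FOXO3, transcription factors that restrain growth, are among the best known targets of its members, and APE1 has been linked to the processing of miRNA precursors.

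The mature sequences, taken from RefSeq on GRCh38.p14, are shown because 3 miRNAs of 1 transcript carry seeds that are alike but not the same. All are written 5′ to 3′ with the seed (bases 2 to 8) in capitals.
hsa-miR-183-5p: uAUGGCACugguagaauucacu
hsa-miR-96-5p: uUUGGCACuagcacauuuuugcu
hsa-miR-182-5p: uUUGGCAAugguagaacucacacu
Counted from the 5′ end, the seed of miR-183-5p differs from that of miR-182-5p by A2U and C8A, the seed of miR-96-5p differs from that of miR-182-5p by C8A, and the seed of miR-96-5p differs from that of miR-183-5p by U2A. Over the whole mature sequence, seed included, the order of likeness changes. Compared base by base from the 5′ end, miR-183-5p and miR-182-5p were identical at 18 of 22 bases (81.8%), whereas miR-96-5p matched miR-183-5p at 13 of 22 and miR-182-5p at 12 of 23. How far the probes tell such related sequences apart was not tested here.

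All 3 hairpins lie on the minus strand of chromosome 7. MIR183 spans chr7:129774905-129775014, MIR96 chr7:129774692-129774769 and MIR182 chr7:129770383-129770492, which is also their order in the direction of transcription. Within these hairpins the mature strands lie at chr7:129774967-129774988 for miR-183-5p, chr7:129774739-129774761 for miR-96-5p and chr7:129770447-129770470 for miR-182-5p. Only 135 bases separate MIR183 from MIR96, while 4199 bases separate MIR96 from MIR182, and the whole cluster covers 4632 bases. In the RefSeq annotation no other gene overlaps it. The nearest genes on its lower-coordinate side were the long non-coding RNA LOC105375501, which ends at position 129769205, and NRF1, which ends at position 129757076.

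The siSCR libraries held 370087 to 488407 counts and the siAPE1 libraries 312152 to 331524, and the counts on miRNA probes alone were 257102 to 330278 and 194991 to 210884. Negative controls, probes with no target in the sample, averaged 24.5 to 29.25 counts in siSCR and 27.5 to 31.25 in siAPE1. The background limit of a library, the mean plus 2 SD of its negative controls, lay between 53.1 and 75.8 counts. A miRNA was tested if it exceeded this limit in at least 3 libraries, and 152 miRNAs did so. Among these, 92 (60.5%) passed an adjusted p of 0.1 in edgeR, 15 of them higher and 77 (50.7%) lower in siAPE1. Some of the 152 exceeded the limit in siSCR libraries only. With the filter set to all 6 libraries, 123 miRNAs were tested, of which 55 were lower and 13 higher past the threshold. Against this background all 3 members passed and were lower.

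APE1-depleted cells held less of each of the 3 miRNAs. With the main scaling, described below, miR-182-5p fell by 51.4%, miR-183-5p fell by 43.2% and miR-96-5p fell by 42.7%. Other scalings gave changes of miR-182-5p from −63.9% to −34.6%. For none of the 3 did the scaled counts of both groups overlap. The same held, lower in siAPE1, for 80 of 152 tested miRNAs (52.6%). RNA from whole cultures does not tell fewer cells with a miRNA from fewer molecules per cell.

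The members were measured at a low but detectable level. Over the 3 probes, the raw counts of the siSCR libraries were 173 to 289 and those of the siAPE1 libraries 84 to 115. All 3 exceeded the background limit in all 6 libraries, by 2.54 to 4.25 times in siSCR and by 1.11 to 1.80 times in siAPE1. The value nearest to the limit was miR-182-5p in siAPE1 replicate 1, where 84 counts have a 95% Poisson interval of 67.0 to 104, and the limit of that library, 75.8, falls inside this interval. Such intervals cover counting error only. Ordered by raw count among the 798 probes, the members stood at places 87 to 100 in siSCR and at 102 to 119 in siAPE1.

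miR-183-5p, the first hairpin of the transcript, had raw counts of 226, 289 and 198 in siSCR replicates 1 to 3 and of 105, 115 and 109 in siAPE1 replicates 1 to 3. The lowest siSCR library still held more than the highest siAPE1 library. miR-96-5p, whose seed region carries mutations in an inherited form of human hearing loss, had raw counts of 205, 227 and 173 in siSCR and of 102, 95 and 87 in siAPE1. Again no library of one group reached into the other. Raw counts are not corrected for yield, and those on all miRNA probes were also separate. They were 257102 to 330278 in siSCR and 194991 to 210884 in siAPE1. How many other probes had separate raw counts was not counted. miR-182-5p, the last hairpin and a repressor of FOXO mRNAs, had raw counts of 213, 281 and 203 in siSCR and of 84, 89 and 102 in siAPE1. It was the least counted of the 3 in siAPE1 replicates 1 and 2, but not in siAPE1 replicate 3, where miR-96-5p was lowest.

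**Figure D1:**
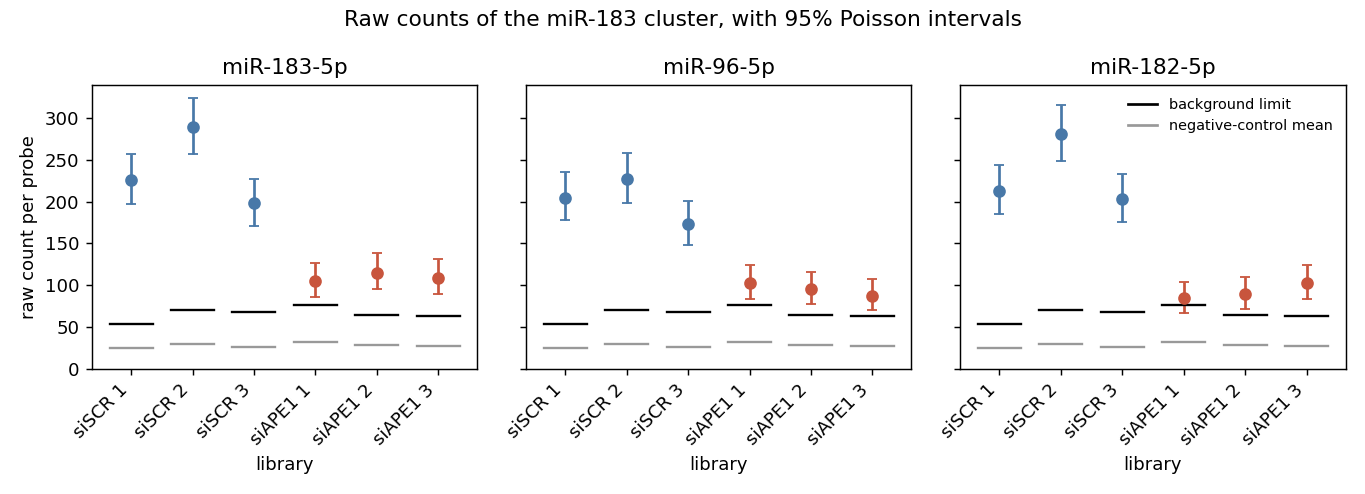
Raw counts of the 3 miRNAs (vertical axis, counts per probe) in each of the 6 libraries (horizontal axis, siSCR in blue, siAPE1 in red), with 95% Poisson intervals as bars, the negative-control mean as a grey line and the background limit as a black line. The siSCR points lie between 173 and 289 and the siAPE1 points between 84 and 115, with miR-182-5p in siAPE1 replicate 1 nearest to its limit of 75.8.

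Libraries differ in yield, and raw counts were therefore divided by a scaling factor taken from the positive controls and 5 housekeeping mRNAs, which was 1.10, 1.31 and 0.861 in siSCR and 0.933, 0.930 and 0.796 in siAPE1. The scaled counts of miR-183-5p were 206, 221 and 230 in siSCR against 113, 124 and 137 in siAPE1. Means fell from 219 ± 12.4 to 124 ± 12.2 (SD, n = 3 per group), with an edgeR log2 fold change of −0.82 ± 0.18 (SE) and an adjusted p of 3.88e-05. The groups were separated by a gap wider than the spread within either of them.

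For miR-96-5p the scaled counts were 187, 174 and 201 in siSCR against 109, 102 and 109 in siAPE1. This was the member with the tightest siAPE1 values. Its mean fell from 187 ± 13.6 to 107 ± 4.14 (SD, n = 3 per group), a log2 fold change of −0.80 ± 0.18 (SE, edgeR adjusted p = 7.10e-05).

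Scaled counts of miR-182-5p were 194, 215 and 236 in siSCR against 90.1, 95.7 and 128 in siAPE1. It had the widest spread of the 3, with siAPE1 replicate 3 above the other siAPE1 libraries, yet all siAPE1 values lay below all siSCR values. The mean fell from 215 ± 21.0 to 105 ± 20.5 (SD, n = 3 per group), a log2 fold change of −1.04 ± 0.19 (SE, edgeR adjusted p = 2.72e-07). Its fold change was the 13th lowest of the 152 tested miRNAs, whereas those of miR-183-5p and miR-96-5p were the 24th and 26th lowest.

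**Figure D2:**
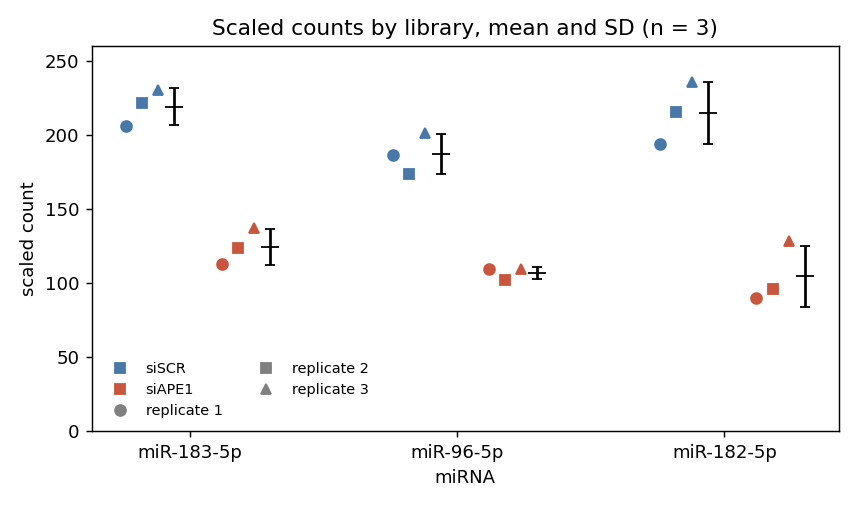
Scaled counts (vertical axis, raw count divided by the scaling factor of the library) of the 3 miRNAs in siSCR (blue) and siAPE1 (red), 1 symbol per library by replicate number, with the mean and SD of each group in black (n = 3). No siAPE1 value, the highest being 137 for miR-183-5p, reaches the siSCR values of the same miRNA, the lowest of which is 174 for miR-96-5p.

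Groups of scaled counts without overlap and lower in siAPE1 were frequent on the panel, at 80 of 152 tested miRNAs (52.6%), and the members' 3 of 3 is to be read against that share. Within the groups the members did not move as a unit from library to library. Scaled counts of miR-183-5p and miR-182-5p were lowest in replicate 1 and highest in replicate 3 of each group, whereas miR-96-5p was lowest in replicate 2 of each. The replicate 3 libraries also had the smallest scaling factors of their groups, and siSCR replicate 3 had the lowest raw count of all 3 members among the siSCR libraries but the highest scaled count. The part of the scaling factor in this pattern was not tested.

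Summed over the 3 probes, raw counts of the cluster were 574 to 797 in siSCR and 291 to 299 in siAPE1. In scaled counts the sum was 621 ± 41.5 in siSCR and 336 ± 33.6 in siAPE1 (SD, n = 3 per group). Differences in total miRNA counts between libraries are divided out in the share that a member takes of its own library's miRNA counts. For the 3 members this share was 0.0673% to 0.0875% in siSCR and 0.0422% to 0.0554% in siAPE1. It too was lower in every siAPE1 library, but a share also depends on the counts of all other miRNAs. When total miRNA counts served as the scaling, 65 of 152 tested miRNAs were lower and past the threshold in edgeR. The median log2 fold change was then −0.12. How many tested miRNAs had shares without overlap was not counted.

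As the 3 miRNAs come from 1 transcript, the ratios of their raw counts within a library show whether they fell alike, free of any scaling factor. A ratio of 2 probes holds the efficiency of each probe, so only its difference between libraries can be read, and not its level. The ratio of miR-183-5p to miR-182-5p was 1.06, 1.03 and 0.975 in siSCR and 1.25, 1.29 and 1.07 in siAPE1. The groups just failed to overlap, with 1.06 as the highest siSCR value and 1.07 as the lowest siAPE1 value. On the log2 scale the difference was 0.23 ± 0.09 (SE), with p = 0.1 in an exact two-sided permutation test, the smallest p that 3 libraries against 3 allow, and 0.3 after adjustment over the 3 ratios.

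The ratio of miR-96-5p to miR-182-5p was 0.962, 0.808 and 0.852 in siSCR and 1.21, 1.07 and 0.853 in siAPE1. Here the groups overlapped because siAPE1 replicate 3 lay among the siSCR values. The log2 difference was 0.25 ± 0.17 (SE; exact permutation p = 0.2, adjusted 0.3), and it was 0.13 without siAPE1 replicate 1 and 0.39 without siAPE1 replicate 3. The ratio of miR-96-5p to miR-183-5p, the hairpins only 135 bases apart, was 0.907, 0.785 and 0.874 in siSCR and 0.971, 0.826 and 0.798 in siAPE1. These ranges overlapped nearly throughout, with a log2 difference of 0.01 ± 0.11 (SE; exact permutation p = 0.9, adjusted 0.9).

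A larger fall of miR-182-5p than of its neighbours was therefore not resolved by the tests that 3 libraries per group allow. The spread of the ratios between replicates was 0.112, 0.204 and 0.131 on the log2 scale (pooled SD, in the order given above), and counting error alone would give about 0.173, 0.180 and 0.174. As a share of the 3 probes' summed counts, miR-182-5p was 34.6% ± 1.29 in siSCR and 31.0% ± 2.87 in siAPE1, miR-183-5p 35.3% ± 0.898 and 37.0% ± 1.26, and miR-96-5p 30.2% ± 1.68 and 32.0% ± 2.94 (SD, n = 3 per group).

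**Figure D3:**
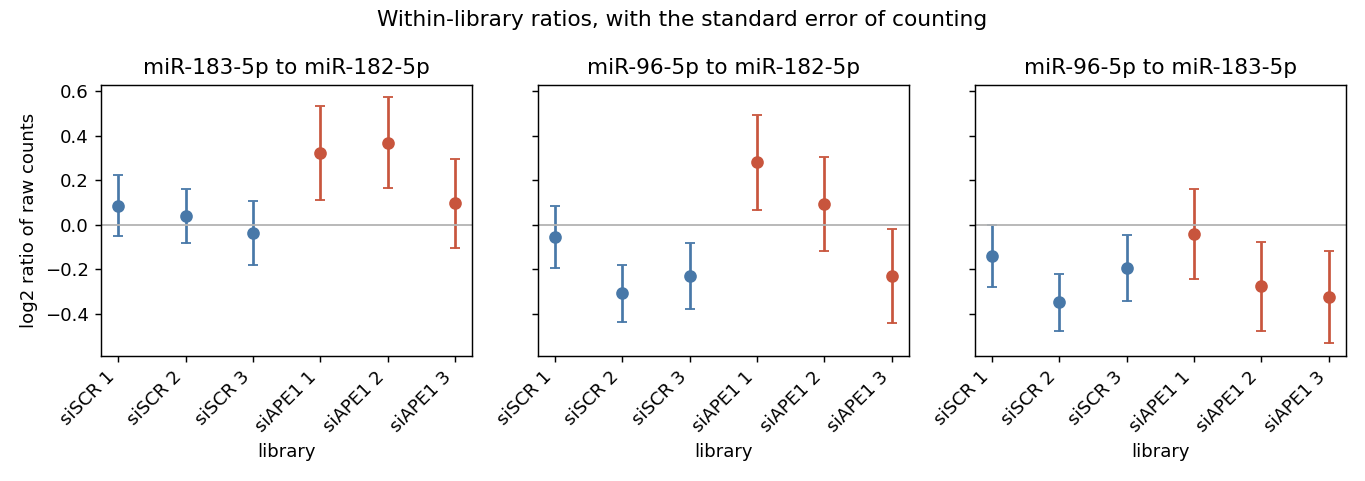
Log2 ratios of raw counts within each library (vertical axis) for the 3 pairs of members, siSCR in blue and siAPE1 in red, with the standard error expected from counting as bars. The groups separate only for miR-183-5p to miR-182-5p, and there by the step from a ratio of 1.06 to one of 1.07, while the other pairs overlap.

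Against miR-16-5p, the miRNA used as the qRT-PCR reference in the study and itself counted 4405, 5325 and 4524 times in siSCR and 3915, 4439 and 4027 times in siAPE1, all 3 members were lower in each siAPE1 library than in any siSCR library. The log2 differences of these ratios were −0.90 ± 0.09 for miR-183-5p, −0.88 ± 0.12 for miR-96-5p and −1.13 ± 0.12 for miR-182-5p (SE, n = 3 per group). Each had an exact permutation p of 0.1, the smallest possible, and 0.1 after adjustment over the 3. Lower values were common on this scale. With miR-16-5p as the reference, 104 of 152 tested miRNAs were lower and past the threshold in edgeR. The median log2 fold change was then −0.41. The share of miRNA counts taken by miR-16-5p itself was 1.61% to 1.76% in siSCR and 2.01% to 2.10% in siAPE1. How many tested miRNAs had such ratios without overlap was not counted.

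The size of the fall depended on the scale chosen, and its direction did not in any of 26 alternatives. With the scaling above, the 152 tested miRNAs had a median log2 fold change of −0.34, and relative to it the members lay at −0.48 (miR-183-5p), −0.47 (miR-96-5p) and −0.70 (miR-182-5p) on the log2 scale. TMM, a scaling that centres the miRNAs on themselves, moved that median to 0.02 and the members to −0.46 (adjusted p = 0.00155), −0.44 (0.00607) and −0.69 (0.000134) in edgeR. With TMM 46 of 152 miRNAs were lower and past the threshold (30.3%), all 3 members among them. Positive controls alone gave the deepest falls, at −1.24, −1.22 and −1.47, and moved the median to −0.75. The smallest falls came from scaling to the 100 most abundant probes, at −0.39, −0.37 and −0.61. A scaling moves all miRNAs of a library by 1 factor, so the distance of the members from the median is nearly fixed by construction under all of these. Where the values themselves changed, the distance moved too, for miR-182-5p from −0.70 to −0.96 after subtraction of the negative-control mean.

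Background counts add to both groups and compress the fold changes of weakly counted probes. After subtraction of the negative-control mean, the scaled means differed 2.64-fold for miR-182-5p, 2.12-fold for miR-183-5p and 2.19-fold for miR-96-5p, against 2.05-fold, 1.76-fold and 1.75-fold before it. The log2 fold changes from limma on the subtracted values were −1.43, −1.09 and −1.13. Subtraction thus put miR-96-5p slightly ahead of miR-183-5p, a reversal well within their errors.

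**Figure D4:**
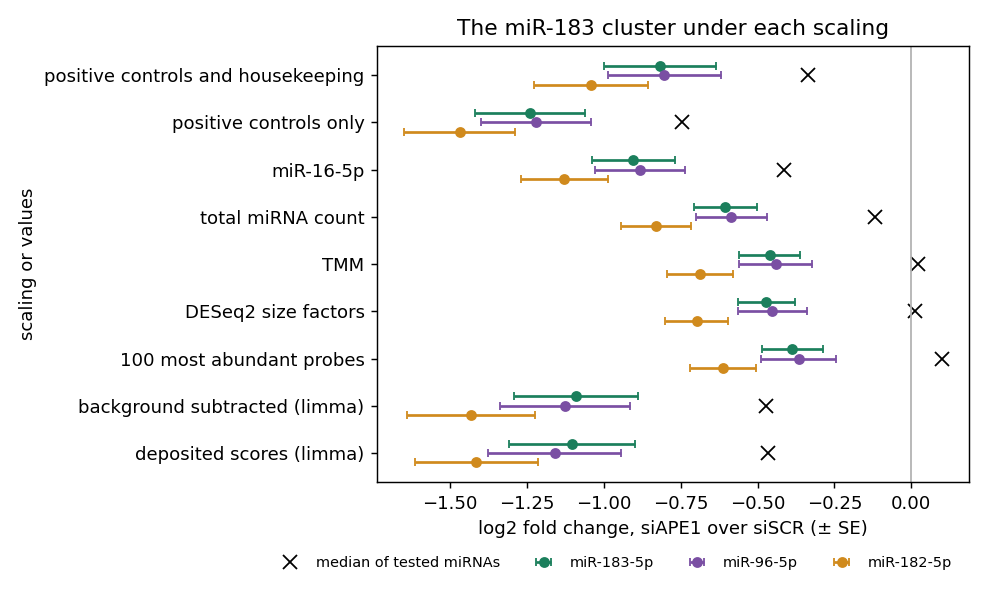
Log2 fold change of siAPE1 over siSCR (horizontal axis, bars are ± SE) of the 3 members under 9 scalings or sets of values (vertical axis), with the median of the tested miRNAs as a cross. The members shift together with the median, from −0.75 with positive controls only to 0.10 with the most abundant probes, and lie to its left throughout, miR-182-5p farthest.

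Other strands that belong with the cluster were at background. The opposite arm of the last hairpin and an unlinked miRNA that shares the seed of miR-96-5p both have probes, and their sequences show the arm and the shared seed, again in capitals.
hsa-miR-182-3p: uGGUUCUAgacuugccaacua
hsa-miR-1271-5p: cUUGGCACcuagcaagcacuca
miR-182-3p, at chr7:129770406-129770426, had 19 to 31 raw counts in siSCR and 22 to 41 in siAPE1. miR-1271-5p, on the plus strand at chr5:176367960-176367981, had 13 to 18 and 21 to 28. Neither exceeded the background limit in any library, and neither was tested. The seeds of miR-183-5p and miR-182-5p were shared with no other mature miRNA of the RefSeq table.

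The name of an epithelial cluster was set against 8 other miRNAs known from epithelia. A single one of these, miR-200b-3p of the miR-200 family that restrains ZEB1 and ZEB2, was counted often enough to be tested, with 72 to 96 raw counts in siSCR and 47 to 59 in siAPE1. It exceeded the background limit in the 3 siSCR libraries and in 0 siAPE1 libraries, so it was tested only through the group in which it was higher. Its log2 fold change, −0.31 ± 0.17 (SE, edgeR adjusted p = 0.118), did not pass and is compressed by background in siAPE1. miR-200a-3p and miR-200c-3p exceeded the limit in 2 libraries each, at 48 to 78 and 66 to 86 raw counts in siSCR and 53 to 65 and 39 to 51 in siAPE1. The remaining 5, miR-141-3p, miR-429, miR-205-5p, miR-203a-3p and miR-375, exceeded it in 0 libraries. The list therefore gives no comparison of the miR-183 cluster with other epithelial miRNAs in these A549 libraries.

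2 other polycistrons served for comparison. In miR-17-92, the oncogenic cluster driven by MYC, 3 of 6 members were lower and past the threshold, 0 were higher and 3 did not pass, about the share of lower calls among all tested miRNAs (50.7%), with a median log2 fold change of −0.38. Its members ran from −0.64 ± 0.17 for miR-19a-3p to 0.36 ± 0.19 (SE) for miR-92a-3p, a span of 1.00. The upper end of this span rests on miR-92a-3p alone, a weakly counted probe with 72 to 131 raw counts in siSCR. Its scaled counts in siSCR were 99.6 ± 46.2 (SD, n = 3), and it did not pass (edgeR adjusted p = 0.102). The other members of miR-17-92 lay between −0.64 and −0.30. The probe of miR-17-5p also counts miR-106a-5p, and that of miR-20a-5p also counts miR-20b-5p. In its paralog miR-106b/93/25, which lies in an intron of MCM7, 0 of 3 members passed, with a median of −0.28 and a span of 0.325. For the miR-183 cluster the median was −0.82 and the span 0.239, beside a median of −0.34 over all 152 tested miRNAs. The differences between the polycistrons were not tested.

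**Figure D5:**
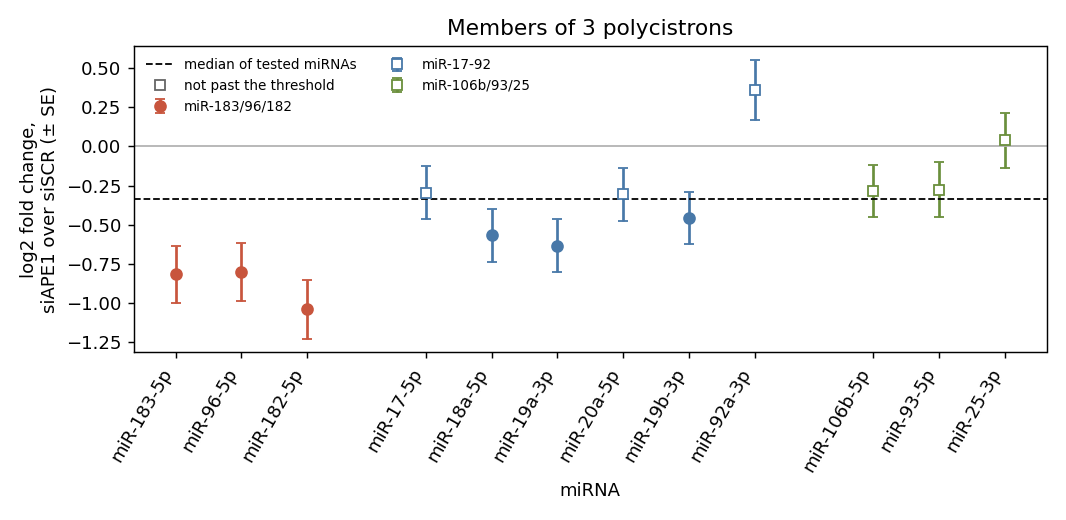
Log2 fold change of siAPE1 over siSCR (vertical axis, bars are ± SE) for the members of 3 polycistrons (horizontal axis, in order along each transcript), filled where past an adjusted p of 0.1 in edgeR, with the median of the tested miRNAs, −0.34, as a dashed line. All 3 members of the miR-183 cluster lie between −1.04 and −0.80, below every member of the other 2 polycistrons.

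The tested miRNAs whose profile over the 6 libraries lay nearest to the mean profile of the members were miR-34c-5p, miR-99b-5p, miR-382-5p, miR-24-3p and miR-191-5p. Likeness was measured as the root mean square difference of log2 scaled counts, each less its own siSCR mean, and these 5 differed from the members' mean by 0.0778, 0.0885, 0.0924, 0.0994 and 0.114. By the same measure miR-183-5p lay at 0.0632, miR-96-5p at 0.107 and miR-182-5p at 0.140, a mean of which each is itself a part. The median over the other tested miRNAs was 0.426. miR-34c-5p and miR-382-5p exceeded the background limit in the 3 siSCR libraries and in 0 siAPE1 libraries, and so were tested only through the group in which they were higher. The 5 were picked for their likeness and all profiles share the scaling factors of the libraries, so these values are a description.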

How the data were processed

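Raw nCounter counts per probe, as deposited by the authors, were read for the 6 libraries, with 822 probes each (798 miRNAs, 5 housekeeping mRNAs, 6 positive and 8 negative controls and 5 spike-ins). The authors also deposited a table of whole-number scores, whose processing is not given in the sources used here. For each member the score rose linearly with the raw count, at 1 slope for all libraries, and the table was used only as an alternative, as log2(score divided by the scaling factor, plus 1).

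R 4.3.3 was used for the scaling and the edgeR, limma and DESeq2 fits, and Python for ratios, permutation tests, Poisson intervals, profile distances and figures. Each library was scaled by the slope of its positive controls multiplied by a housekeeping factor, the median over the 5 mRNAs of the background-subtracted count relative to its mean over libraries. Groups were compared by the robust quasi-likelihood test of edgeR 4.0.16 over 152 tested miRNAs with Benjamini-Hochberg adjustment and a threshold of 0.1. The SE of an edgeR log2 fold change was calculated back from the fold change and the F statistic of that test. Ratios were compared by exact two-sided permutation tests. The labels do not say whether replicates were separate cultures, so p-values measure the spread between these samples, which may be technical. In edgeR, limma and DESeq2 that spread was estimated with information pooled over the tested miRNAs. An adjusted p of a member therefore does not rest on its own 3 libraries per group alone. Alternatives used limma 3.58.1, DESeq2 1.42.0, other scalings and filters, a replicate block and omission of each library. The edgeR script was tested on simulated counts. The members, the lists of miRNAs and the naming rule (members, other arms, seed sharers, miR-16-5p, 8 epithelial miRNAs, 2 polycistrons, the 5 nearest profiles) were chosen with earlier results of these data known. Total counts ran from 312152 to 488407 per library.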

Additional observations from a re-analysis of the deposited data

How the results depend on the processing

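All 3 members were lower and past the threshold in each of 26 alternatives, 1 of which (limma on log2 scaled counts without subtraction) was added after seeing the data. Log2 fold changes ran from −1.24 to −0.39 for miR-183-5p (adjusted p 5.55e-11 to 0.00624), from −1.22 to −0.37 for miR-96-5p (1.15e-10 to 0.0237) and from −1.47 to −0.61 for miR-182-5p (2.78e-14 to 0.000575). Leaving out 1 library at a time gave −0.89 to −0.75, −0.85 to −0.75 and −1.21 to −0.95. The log2 differences of the ratios to miR-16-5p moved to −1.17, −1.20 and −1.51 (miR-183-5p, miR-96-5p, miR-182-5p) after subtraction of the negative-control mean and to −1.19, −1.25 and −1.50 with the deposited scores, and the ratios between members moved by less than the spread between replicates in all 9 of their alternatives. After that subtraction the log2 difference of miR-183-5p to miR-182-5p was 0.34 against 0.23 before, beside a pooled SD of 0.112. It was 0.30 against 0.25 for miR-96-5p to miR-182-5p and −0.04 against 0.01 for miR-96-5p to miR-183-5p. Leaving out 1 library at a time still gave 0.18 to 0.32 for miR-183-5p to miR-182-5p, 0.13 to 0.39 for miR-96-5p to miR-182-5p and −0.07 to 0.07 for miR-96-5p to miR-183-5p. The count of miRNAs past the threshold was 92 (15 higher, 77 lower) and 152 of 798 with no filter (78 higher, 74 lower). The split was 47 and 46 with TMM, 47 and 50 with DESeq2 size factors, 32 and 65 with total miRNA counts, 58 and 40 with the most abundant probes and 6 and 128 with positive controls only. Over the 152 tested miRNAs, deviations from group means correlated at −0.59, −0.01 and −0.49 between libraries of equal replicate number (1 to 3). Between unequal numbers they correlated at −0.18 to 0.61, the highest for siSCR replicate 3 with siAPE1 replicate 1. Equal numbers were thus no more alike than unequal ones, though these correlations depend on each other. A fit with the replicate number as a block called 116 miRNAs, with −0.82, −0.80 and −1.05 for the members. Members had only 84 to 115 raw counts each in siAPE1, and 3 libraries per group allow no exact p below 0.1 for a ratio.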

Other observations

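In the deposited score table miR-182-5p was the highest of the 3 members, at 254 ± 53.2 in siSCR and 77.3 ± 11.4 in siAPE1, against 157 ± 35.8 and 58.7 ± 4.04 for miR-183-5p and 129 ± 21.1 and 47.0 ± 6.0 for miR-96-5p (mean score ± SD, n = 3 per group). In mean raw counts of siSCR miR-183-5p was the highest. Scores of miR-182-5p rose by 1.26 per raw count, those of miR-183-5p by 0.766 and those of miR-96-5p by 0.770, so the order of the members' levels differed between the 2 deposited sets of values, whereas their direction between the groups did not.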
